A study of Bubalus bubalis with 6 samples.

Results

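Genes of EGFR signaling and of ERK feedback were examined in buffalo muscle stem cells (MuSCs) as they passed from proliferation to differentiation. The set holds 10 of the 24616 genes listed in the gene table, chosen by symbol: the receptors EGFR and ERBB3, the ligands HBEGF, EREG, AREG and NRG1, the dual-specificity phosphatases DUSP4, DUSP5 and DUSP6, and the inhibitor SPRED1. The primary MuSCs came from the longissimus muscle of buffalo fetuses. Polyadenylated RNA was sequenced from 3 GM and 3 DM samples. GM samples are proliferating MuSCs in high-glucose DMEM with fetal bovine serum. DM samples are differentiating MuSCs in DMEM with horse serum. By the methods, the differentiation medium held a smaller share of serum, and cells were moved to it when almost confluent. Differentiation, the loss of serum and cell density therefore cannot be told apart in these samples. The labels name no transgene, deletion or knockdown in any of them. The labels give neither a time in differentiation medium nor a sequencing batch, and they do not say whether the samples of a group were separate cultures. The p-values therefore measure only the spread between these samples, which may be technical.

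EGFR and ERBB3 are receptor tyrosine kinases of the ERBB family. HBEGF, EREG and AREG are membrane-bound growth factors that proteases shed from the cell surface and that bind EGFR, while NRG1 binds ERBB3 and ERBB4. Active ERBB receptors recruit adaptors that load RAS with GTP, and RAS drives the RAF, MEK and ERK kinases. ERK in turn induces transcripts whose products switch the pathway off again. Among these, DUSP4, DUSP5 and DUSP6 remove phosphate from ERK, and Sprouty and SPRED proteins act upstream of it, SPRED1 by bringing the RAS GTPase-activating protein neurofibromin to the membrane. In cultured myoblasts, growth factors that act through ERK are known to favor proliferation, and their withdrawal precedes fusion into myotubes.

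Between 35615864 and 40305237 reads per sample were counted on genes, so that 1 count was worth 0.0240 to 0.0296 CPM. CPM is the count scaled to the TMM-normalized library size, and values are given as mean ± SD (n = 3 per group) unless single samples are named. DM replicate 3 stood apart, since the chi-square of its gene counts, divided by the degrees of freedom, was 40.5 to 41.4 against the other DM samples and 11.7 between those 2. Differences were tested with edgeR's quasi-likelihood test over all genes with at least 10 counts in total, with Benjamini-Hochberg adjustment. Calls required both an adjusted p under 0.05 and a log2 fold change beyond 1 in either direction, and log2 fold changes are DM over GM. Coordinates are those of the gene table, which uses cattle Ensembl identifiers and names no genome build.

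All 10 genes passed the count filter, AREG through its GM counts alone. Of these, 6 were called, against 25.3% of the 15576 genes tested. The calls were 5 lower in DM samples, namely EREG, NRG1, DUSP4, DUSP5 and DUSP6, and 1 higher, ERBB3, while 10.3% of all tested genes were called lower and 15.0% higher. The median log2 fold change of the 10 genes was -1.32, and that of the 9 genes without AREG was -1.32, beside 0.03 for all tested genes. Scaling by library size alone moved the median of all genes to -0.07, and the 6 calls stayed 5 lower and 1 higher. Without a minimum fold change 8 of the 10 genes had an adjusted p under 0.05 in edgeR, where 63.0% of all genes did. In CPM the 2 groups were free of overlap in 9 of 9 genes without AREG, which is at the detection limit, and this was also true of 68.8% of all genes. Without DM replicate 3 there were again 6 calls, 5 lower and 1 higher.

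**Figure D1:**
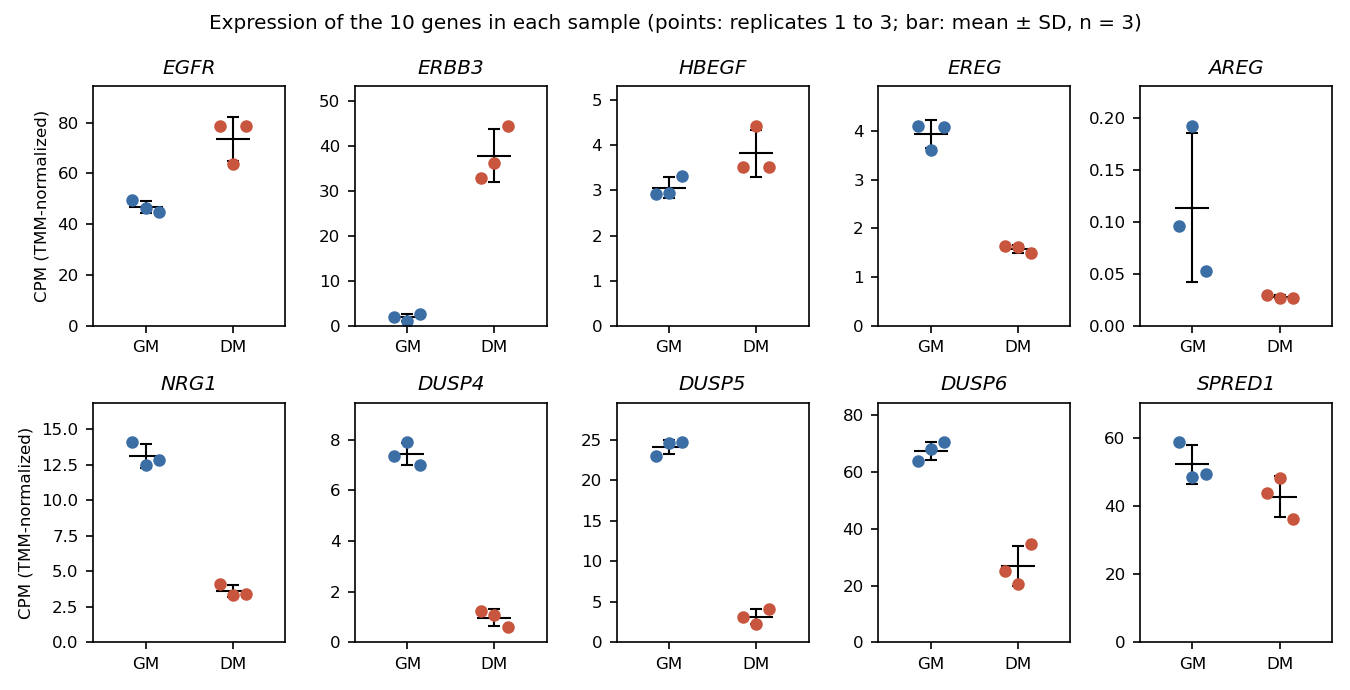
CPM (TMM-normalized) of each of the 10 genes in the 3 GM samples (blue) and the 3 DM samples (red), on linear axes that start at 0, with bars for mean ± SD. DUSP4, DUSP5 and NRG1 fell far below their GM levels and ERBB3 rose from near 0, whereas the points of HBEGF and SPRED1 lie close together.

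EGFR and ERBB3 encode the receptors of the set. EGFR (ENSBTAG00000011628, chr22:892005-1069280, minus strand) had 2048, 1934 and 1697 counts in GM samples and 2654, 2332 and 2911 in DM samples. On the CPM scale this was 49.4, 46.5 and 44.8 against 78.6, 63.7 and 78.7, so that every DM sample lay above every GM sample. The mean went from 46.9 ± 2.34 to 73.7 ± 8.60 CPM, a 1.57-fold difference (log2 0.65, SE 0.09, 95% interval 0.45 to 0.85; edgeR adjusted p = 9.5e-05). This is below the fold change a call needs, so EGFR was not called.

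ERBB3, a receptor with little kinase activity of its own that signals in pairs with other ERBB receptors, showed the largest change of the 10 genes. The gene (ENSBTAG00000010444, chr5:57539933-57560884, minus strand) had 86, 47 and 99 counts in GM samples and 1109, 1327 and 1644 in DM samples. All 3 DM samples were more than 10 times as high as any GM sample. The mean rose from 1.94 ± 0.750 to 37.8 ± 5.96 CPM, 19.6-fold (log2 4.29, SE 0.23, 95% interval 3.79 to 4.80; edgeR adjusted p = 7.82e-08). Without DM replicate 3 the log2 fold change was 4.17. Muscle genes of the marker list were set beside these values in CPM. GM replicate 2, the lowest in ERBB3, was also the lowest GM sample in MYOG, MYH3, ACTA1, CKM and TNNT3, for example with 207 CPM of MYH3 against 418 and 414. These are only part of the 11 tested myogenic markers, and the order of the rest in GM samples is not given here. DM replicate 3, the highest in ERBB3, was the highest DM sample in MYH3, ACTA1, CKM and TNNT3 but the lowest in MYOG (155 CPM, against 161 and 185) and in MYOD1 (39.3 CPM, against 67.2 and 75.0). The middle samples were not in the same order throughout: DM replicate 2 was above DM replicate 1 in ERBB3 and below it in ACTA1, CKM and TNNT3. The part of muscle cell content in the ERBB3 values was not tested, and in bulk samples a change in the number of cells of a type and a change in RNA per cell cannot be told apart.

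The remaining ERBB receptors moved less. ERBB2, the partner receptor that binds no ligand itself, was named after its values were seen. It measured 51.8 ± 1.72 CPM in GM samples and 59.5 ± 3.05 CPM in DM samples (log2 0.20, edgeR adjusted p = 0.0258) and was not called. ERBB4 had 0 counts in every GM sample and 2, 1 and 1 in DM samples, at or under the limit of 3 counts that a count of 0 allows. The 4 receptors together had a summed RPKM of 26.6 ± 0.861 in GM samples against 39.6 ± 2.33 in DM samples. ERBB3 made up 1.39 ± 0.524% and 17.0 ± 2.43% of it. The samples did not overlap in either quantity, and the exact permutation test (two-sided) returned p = 0.1 for both, the smallest that 3 samples against 3 allow.

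Among the EGFR ligands of the set, EREG fell, HBEGF did not pass the test and AREG was close to the detection limit. EREG, which encodes epiregulin (ENSBTAG00000010273, chr6:91065006-91071187, plus strand), had 170, 150 and 155 counts in GM samples and 55, 59 and 55 in DM samples. The samples of each group lay close to each other and far from the other group. The mean fell from 3.93 ± 0.282 to 1.58 ± 0.0777 CPM, 2.49-fold (log2 -1.32, SE 0.19, 95% interval -1.74 to -0.90; edgeR adjusted p = 0.000125). When edgeR tested for a change beyond 2-fold, the adjusted p was 0.102, so the fall itself was called but not a fall of more than 2-fold.

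HBEGF encodes heparin-binding EGF-like growth factor (ENSBTAG00000021766, chr7:53216665-53227848, minus strand). Its counts were 121, 122 and 126 in GM samples and 119, 162 and 130 in DM samples. These correspond to 2.92, 2.93 and 3.32 CPM in GM samples and 3.52, 4.43 and 3.51 CPM in DM samples. The groups are separated by a narrow margin in CPM, and in the deposited RPKM values they overlap, with 1.89, 1.89 and 2.15 in GM samples and 2.09, 2.72 and 2.13 in DM samples. The mean was 1.25-fold higher in DM samples, with a 95% interval of 0.946 to 1.65 (edgeR adjusted p = 0.145), so a fall of the size seen for EREG lies outside the interval.

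AREG, which encodes amphiregulin (ENSBTAG00000018134, chr6:91126256-91138391, plus strand), had 4, 8 and 2 counts in GM samples and 1 in each DM sample. With 3 counts over all DM samples and 14 over all GM samples, the ratio scaled to library size was 0.241, with an exact interval of 0.0445 to 0.865 that covers counting error only. AREG was not called (edgeR adjusted p = 0.0873), and a difference between the groups was not detectable against the spread at this depth. Without GM replicate 2 AREG missed the count filter. EREG and AREG are neighbors: 55.1 kb separate them in the gene table, on the same strand, with no listed gene in between, and they are also adjacent in the RefSeq gene list of the buffalo assembly NDDB_SH_1.

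NRG1 encodes neuregulin 1, the ligand of ERBB3 and ERBB4 (ENSBTAG00000004150, chr27:27624065-27853566, plus strand). Its counts were 583, 519 and 487 in GM samples and 139, 121 and 126 in DM samples. The highest DM sample was far below the lowest GM sample. The mean fell from 13.1 ± 0.828 to 3.61 ± 0.441 CPM, 3.64-fold (log2 -1.86, SE 0.14, 95% interval -2.16 to -1.56; edgeR adjusted p = 7.36e-07). The ligand and its receptor ERBB3 thus moved in opposite directions between the same samples.

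NRG1 was the only one of the 10 genes with more than 1 listed mRNA. Its transcript of 726 bases (ENSBTAT00000005431) had 265, 213 and 203 counts in GM samples and 50, 48 and 49 in DM samples (log2 -2.05, SE 0.19). The transcript of 2106 bases (ENSBTAT00000047662) had 317, 315 and 287 counts against 95, 72 and 80 (log2 -1.74, SE 0.17). The transcript of 549 bases (ENSBTAT00000047665) had 192, 169 and 139 counts against 37, 37 and 33 (log2 -2.06, SE 0.21). All 3 were called lower by edgeR over the mRNA table, in which 25.6% of 16352 transcripts were called, and the differences among the 3 log2 fold changes were not tested. The counts of the 3 transcripts add up to 2601, against 1975 for the gene, so some reads were counted on more than 1 transcript. The other 9 genes each have 1 listed mRNA with the counts of the gene.

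The wider ligand family was given by a list of 11 genes, of which 8 are listed in the table by symbol and 7 were tested. In this list 3 genes were called, all lower, where 10.3% of all tested genes were called lower. They were EREG and NRG1, and TGFA, which encodes transforming growth factor alpha, another EGFR ligand. Outside the set of 10 genes, 3 ligands were tested and 1 was called. TGFA had 108, 89 and 94 counts in GM samples and 13, 5 and 2 in DM samples (log2 -3.66, SE 0.47; edgeR adjusted p = 5.81e-05). Leaving out DM replicate 1 gave a log2 value of -4.61, so the size of its fall depends on that sample. The median of the 7 tested ligands was -1.32, beside 0.03 for all tested genes. BTC, EPGN and NRG2 had at most 11 counts in any sample, which leaves their direction undecided.

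The RPKM of the 6 listed EGFR-binding ligands was summed per sample, since RPKM is scaled by gene length and can be added across genes. The sums were 14.2, 12.4 and 14.2 in GM samples and 5.35, 5.60 and 4.84 in DM samples. The groups did not overlap (13.6 ± 1.05 against 5.26 ± 0.383; exact two-sided permutation p = 0.1, the smallest possible). On a log2 scale the ratio of the means was -1.37, but -0.75 when CPM was summed in place of RPKM. The make-up of the sum changed as well. HBEGF supplied 14.6 ± 1.11% of it in GM samples and 43.8 ± 4.76% in DM samples, TGFA 37.4 ± 1.23% and 7.02 ± 6.15%, and EREG 46.8 ± 0.201% and 45.3 ± 1.13%. EREG stood 3.23 ± 0.253 times as high as HBEGF in GM samples and 1.04 ± 0.124 times in DM samples, by RPKM. These shares and ratios rest on listed lengths of 639 bases for EREG, 489 for TGFA and 1602 for HBEGF. In CPM, EREG was at 3.93 and HBEGF at 3.06 in GM samples. In DM samples EREG was at 1.58 CPM and HBEGF, then the higher, at 3.82.

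**Figure D2:**
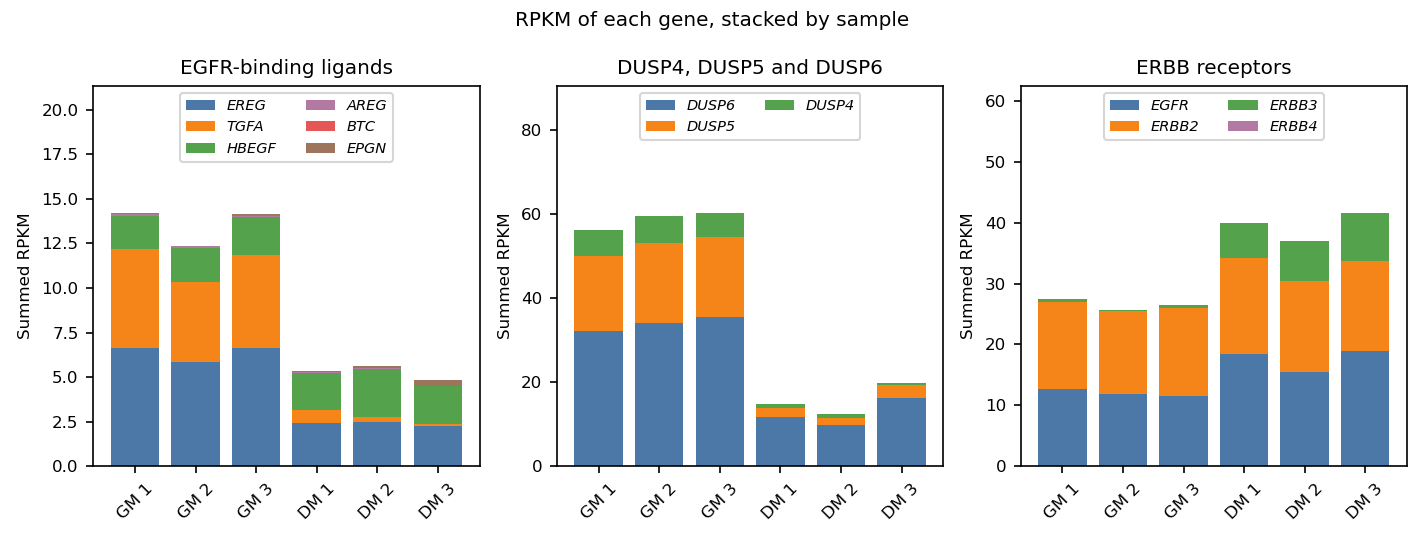
RPKM of the listed EGFR-binding ligands, of DUSP4, DUSP5 and DUSP6, and of the ERBB receptors, stacked for each GM and DM sample. The ligand sums lie at 12.4 or more in GM samples and at 5.60 or less in DM samples, the phosphatase sums drop from 58.7 to 15.7 on average, and ERBB3 appears in the receptor bars of DM samples.

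The 3 ERK phosphatases of the set all fell. DUSP4, a nuclear phosphatase of ERK and other MAP kinases (ENSBTAG00000044208, chr27:24815381-24828237, minus strand), had 305, 328 and 266 counts in GM samples and 42, 40 and 22 in DM samples. Each DM count was far below each GM count. The mean fell from 7.42 ± 0.438 to 0.977 ± 0.340 CPM, 7.60-fold (log2 -2.93, SE 0.24, 95% interval -3.47 to -2.39; edgeR adjusted p = 2.03e-06).

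DUSP5, a nuclear phosphatase specific for ERK (ENSBTAG00000020283, chr26:31326729-31338433, plus strand), had 955, 1021 and 934 counts in GM samples and 107, 84 and 151 in DM samples. GM samples agreed closely, and DM replicate 3 was the highest of the DM samples. The mean fell from 24.1 ± 0.902 to 3.18 ± 0.893 CPM, 7.55-fold (log2 -2.92, SE 0.17, 95% interval -3.30 to -2.54; edgeR adjusted p = 1.61e-07).

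DUSP6, the cytoplasmic phosphatase of ERK (ENSBTAG00000004587, chr5:19276348-19280028, minus strand), had 2646, 2829 and 2669 counts in GM samples and 853, 754 and 1278 in DM samples. DM replicate 3 was again the highest DM sample, and still well below the lowest GM sample. The mean fell from 67.4 ± 3.34 to 26.8 ± 7.09 CPM, 2.51-fold (log2 -1.33, SE 0.15, 95% interval -1.67 to -0.99; edgeR adjusted p = 2.12e-05). Without DM replicate 3 the log2 fold changes were -2.66 for DUSP4, -3.14 for DUSP5 and -1.55 for DUSP6, and all 3 calls remained.

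DUSP6 thus fell by less than DUSP4 and DUSP5, which shows in ratios of RPKM within a sample. The ratio of DUSP6 to DUSP5 was 1.80, 1.80 and 1.86 in GM samples and 5.19, 5.84 and 5.51 in DM samples. The ratio was tight within each group and about 3 times as high in DM samples (exact two-sided permutation p = 0.1, adjusted p = 0.12 over 6 ratios chosen after the values were seen). The ratio of DUSP6 to DUSP4 was 5.22, 5.19 and 6.03 in GM samples. In DM samples it was 12.2, 11.3 and 34.9, so its size depends on DM replicate 3. The ratio of DUSP5 to DUSP4 overlapped between the groups, with 2.35, 1.94 and 6.34 in DM samples. The sum of the 3 phosphatases was 56.2, 59.7 and 60.3 RPKM in GM samples and 14.9, 12.4 and 19.7 RPKM in DM samples (exact two-sided permutation p = 0.1). DUSP6 made up 57.7 ± 0.842% of this sum in GM samples and 80.2 ± 2.19% in DM samples, DUSP5 31.7 ± 0.105% and 14.6 ± 0.850%, and DUSP4 10.6 ± 0.737% and 5.26 ± 2.53%.

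Across the 10 listed dual-specificity MAP kinase phosphatases, 6 were called lower and 1 higher, where 10.3% of all tested genes were called lower and 15.0% higher, and the median log2 fold change was -1.21. Outside DUSP4, DUSP5 and DUSP6, 7 were tested, of which 3 were called lower and 1 higher. Those lower were DUSP8 (log2 -2.74), DUSP2 (log2 -1.64) and DUSP16 (log2 -1.08), named after their values were seen. DUSP8 and DUSP16 act mainly on the stress kinases JNK and p38. DUSP10, which also acts on JNK and p38, rose from 3.86 ± 0.475 to 8.92 ± 2.02 CPM (log2 1.21, SE 0.19; edgeR adjusted p = 0.0002). Tested for a change beyond 2-fold, 4 of the 10 were called, all lower, beside 2293 of all 15576 tested genes, 895 of them lower. When genes had to reach an RPKM of 1 in over 50% of samples, the rule in the study's methods, only 6 of the 10 were tested, without DUSP4. Of those 6, 4 were called, 3 of them lower.

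**Figure D3:**
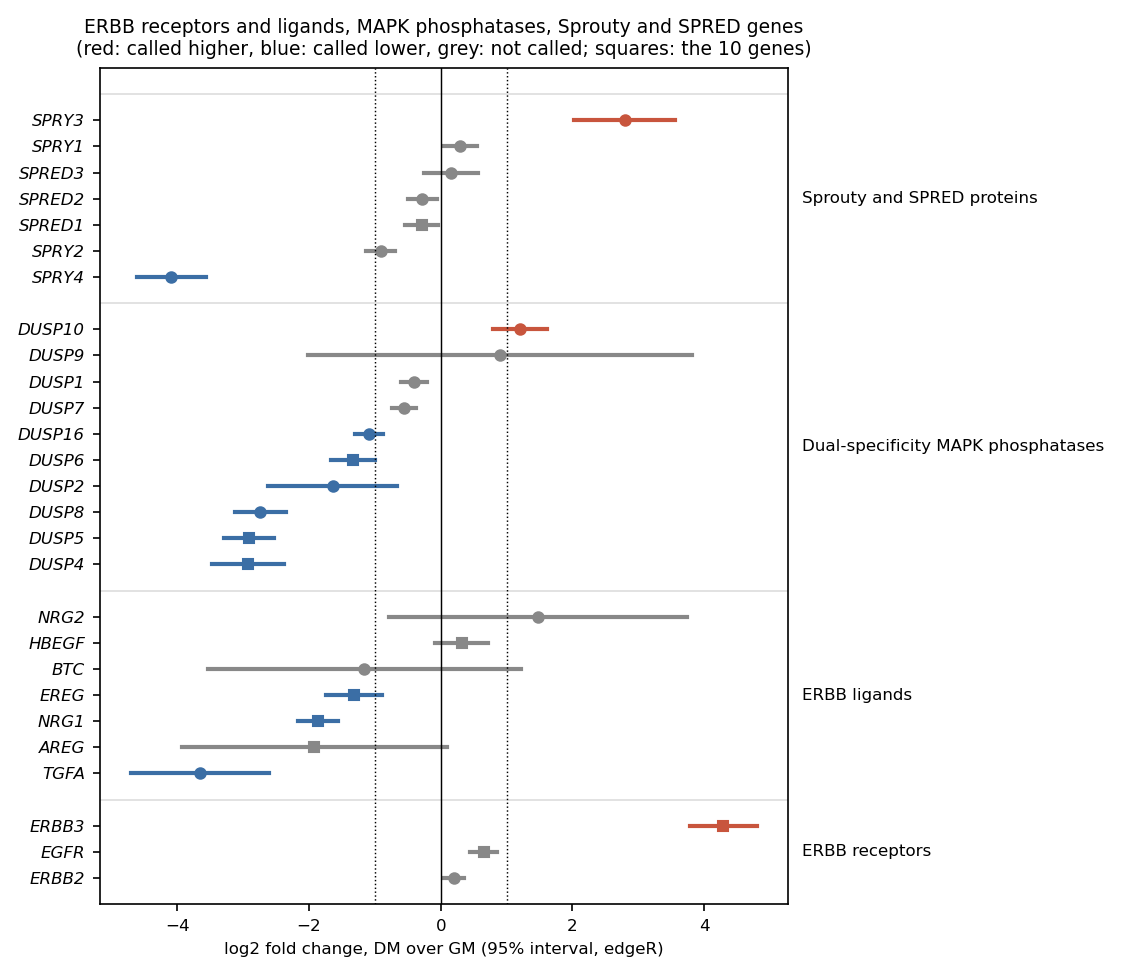
Log2 fold change (DM over GM, edgeR) with 95% interval of the tested ERBB receptors, ERBB ligands, dual-specificity phosphatases and Sprouty and SPRED genes, with squares for the 10 genes and dotted lines at -1 and 1. SPRY4 at -4.09 lies farthest to the left, followed by TGFA, DUSP4 and DUSP5. ERBB3 at 4.29 and SPRY3 at 2.79 lie to the right, and SPRED1 at -0.29 lies near 0.

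SPRED1 (ENSBTAG00000032518, chr10:33950024-34069008, plus strand) had 2439, 2024 and 1880 counts in GM samples and 1481, 1772 and 1344 in DM samples. GM samples lay at 58.8, 48.6 and 49.6 CPM and DM samples at 43.8, 48.4 and 36.3 CPM. GM replicate 2 and DM replicate 2 nearly met. The mean was 52.3 ± 5.62 CPM in GM samples and 42.9 ± 6.11 CPM in DM samples (log2 -0.29, SE 0.11, 95% interval -0.54 to -0.04; edgeR adjusted p = 0.0425), and SPRED1 was not called. The edgeR adjusted p was 0.0186 without DM replicate 2 and between 0.0501 and 0.182 when any other sample was left out. SPRED1 overlaps a listed SNORA70 gene on the other strand, which had 0 counts in all samples.

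The Sprouty and SPRED family had calls in both directions. Of 7 members tested, SPRY4 was called lower and SPRY3 higher, a share of calls near the 25.3% of all tested genes. The median was -0.28. SPRY4, an inhibitor of signaling from receptor tyrosine kinases, fell from 35.5 ± 0.472 to 2.07 ± 1.03 CPM (log2 -4.09, SE 0.24; edgeR adjusted p = 1.43e-07). SPRY3 had 8, 14 and 13 counts in GM samples and 76, 83 and 58 in DM samples (log2 2.79, SE 0.34; edgeR adjusted p = 3.86e-05). SPRED1 was below SPRY4 in GM samples by RPKM, at 0.756 ± 0.0916 times its level, and 12.8 ± 6.80 times as high in DM samples. The ratio in DM samples ranged from 5.74 in replicate 3 to 19.3 in replicate 2. The order in GM samples depends on the listed lengths of 3955 bases for SPRED1 and 2026 for SPRY4. In CPM SPRED1 was above SPRY4 there, at 52.3 against 35.5.

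By RPKM, DUSP6 was the highest of the 10 genes in GM samples, at 33.9 ± 1.63, followed by DUSP5 at 18.6 ± 0.661, SPRED1 at 13.7 ± 1.5 and EGFR at 12.0 ± 0.619. The lowest SPRED1 sample and the highest EGFR sample both stood at 12.7 RPKM. Within each GM sample SPRED1 was above EGFR, at 15.4, 12.7 and 13.0 against 12.7, 11.9 and 11.5 RPKM, and this difference was not tested. EREG at 6.36 ± 0.468 and DUSP4 at 6.21 ± 0.358 overlapped, and NRG1 at 5.05 ± 0.330, HBEGF at 1.97 ± 0.148, ERBB3 at 0.370 ± 0.143 and AREG at 0.0852 ± 0.0533 followed without overlap. In DM samples EGFR led at 17.6 ± 1.84 RPKM. DUSP6 at 12.6 ± 3.32 overlapped with EGFR and with SPRED1 at 10.5 ± 1.56, and ERBB3 came next at 6.75 ± 1.11. EREG at 2.38 ± 0.116, HBEGF at 2.31 ± 0.353 and DUSP5 at 2.30 ± 0.637 could not be ordered. NRG1 at 1.30 ± 0.135, DUSP4 at 0.763 ± 0.261 and AREG at 0.0196 ± 0.000692 were lowest. The RPKM of EGFR was 36.8 ± 16.7 times that of ERBB3 in GM samples and 2.65 ± 0.489 times in DM samples. The order of the 10 genes rests on their listed lengths, from 639 bases for EREG to 5423 for ERBB3. In CPM, SPRED1 at 52.3 and EGFR at 46.9 stood above DUSP5 at 24.1 in GM samples.

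Genes around the receptors were read from a list of proteases that shed ligands and of proteins that attenuate receptors. Of 15 tested, 2 were called higher and 2 lower, a share of calls near the 25.3% of all genes, with a median of 0.14. ERRFI1, an inhibitor that binds the kinase domain of EGFR and is itself induced by EGFR signaling, fell from 516 ± 10.3 to 47.8 ± 3.56 CPM, 10.8-fold (log2 -3.43, SE 0.07; edgeR adjusted p = 4.2e-10). RHBDF2, an inactive rhomboid needed for maturation of the protease ADAM17, fell with a log2 fold change of -2.06. The related RHBDF1 rose with a log2 fold change of 1.07, which was 0.97 and no longer a call with library size alone. RHBDL2, a rhomboid protease, had 4, 5 and 3 counts in GM samples and 22, 9 and 10 in DM samples (log2 1.93), and was not called without GM replicate 1, GM replicate 3 or DM replicate 1. Tested for a change beyond 2-fold, ERRFI1 and RHBDF2 were the 2 called genes of this list.

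The kinases and adaptors between receptor and ERK were read next. Of 23 tested genes of the RAS-ERK cascade, 2 were called, both lower, against 25.3% of all genes called in either direction, and the median was 0.01. RASGRP3, an activator of RAS, had 52, 48 and 61 counts in GM samples and 2, 7 and 17 in DM samples (log2 -2.46, SE 0.52; edgeR adjusted p = 0.00184), and its log2 value was -3.35 once DM replicate 3 was left out. MRAS, a RAS relative that works with SHOC2, fell from 162 ± 3.02 to 80.7 ± 4.93 CPM (log2 -1.01). It was not called without GM replicate 2 or DM replicate 2, where its log2 fold change was -0.996 and -0.943, because the fold change then missed the threshold, nor with filterByExpr (-0.997) or the RPKM rule (-0.952). Under the RPKM rule 1 gene of the cascade was called, and it was higher. Of the 7 tested RAS GTPase-activating proteins edgeR and DESeq2 called 0, where edgeR called 25.3% of all tested genes. In edgeR 4 had an unadjusted p under 0.05. The same number had an adjusted p under 0.05, where 63.0% of all tested genes did. When GM replicate 1, DM replicate 1 or DM replicate 2 was left out, 1 of the 7 was called higher.

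The next list, like the others, was drawn up with earlier results of these data known, so its share of calls may reflect that choice. It holds 24 transcripts that ERK signaling is known to induce, including DUSP4, DUSP5, DUSP6 and SPRED1. Of these, 12 were called lower and 1 higher, beside 10.3% and 15.0% of all tested genes, with a median log2 fold change of -1.16. Leaving out the 4 genes of the set, 20 remained, of which 9 were called lower and 1 higher, again beside 10.3% and 15.0%, with a median of -0.95 beside 0.03 for all tested genes. IL11, a cytokine, showed the largest fall, from 65.4 ± 8.48 to 1.13 ± 0.106 CPM (log2 -5.84, SE 0.14; edgeR adjusted p = 6.88e-10), and SPRY4 came next. FOS, an immediate early transcription factor, was the 1 gene called higher, from 11.3 ± 2.45 to 54 ± 4.72 CPM (log2 2.26, SE 0.14; edgeR adjusted p = 2.47e-07). EGR1, another immediate early gene, was named after its values were seen. It measured 114 ± 37.9 and 111 ± 36.5 CPM (edgeR adjusted p = 0.919). Protein levels and ERK phosphorylation were not measured in these data.

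**Figure D4:**
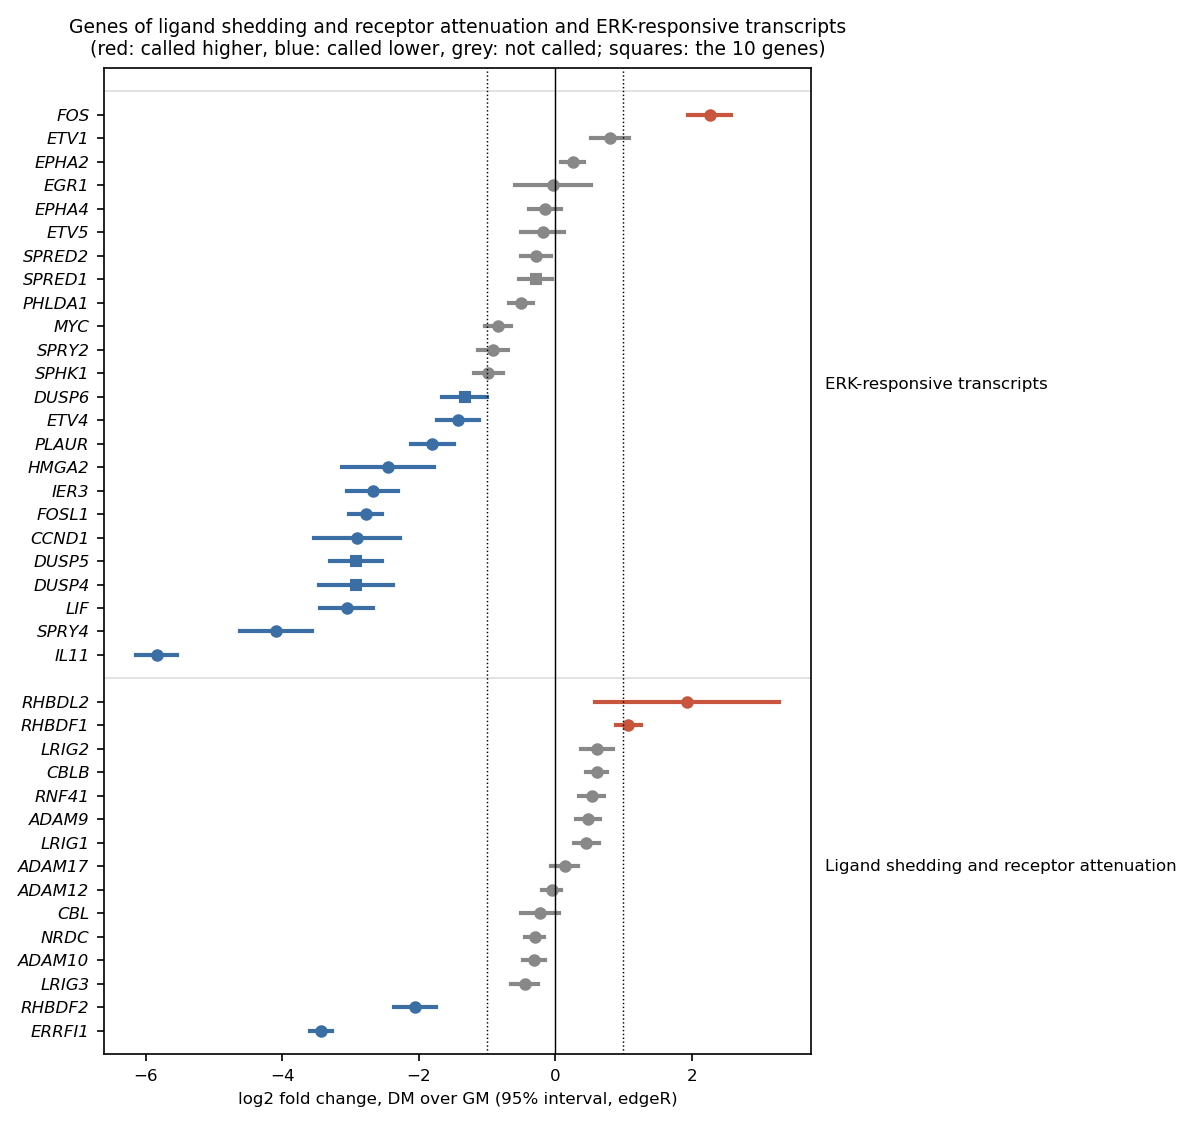
Log2 fold change (DM over GM, edgeR) with 95% interval for genes of ligand shedding and receptor attenuation and for ERK-responsive transcripts, with squares for the genes of the set. In the ERK-responsive list 12 genes are called lower, IL11 farthest at -5.84, and FOS at 2.26 is alone among the calls on the right, while ERRFI1 at -3.43 leads the other list.

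Markers of cell types were read in the same groups, where 15.0% of all tested genes were called higher and 10.3% lower. PAX7, which defines MuSCs, was detected in every sample, with 702 to 774 counts per GM sample and 226 to 415 per DM sample. Of 11 tested myogenic markers 5 were called higher and 2 lower, and their summed level went from between 2895 and 3441 CPM in GM samples to between 5757 and 7823 CPM in DM samples. Of 7 tested fibroblast markers 5 were called higher, and their sum went from between 25274 and 25501 CPM to between 77360 and 97126 CPM. The part of either change in the values of the 10 genes was not tested. Schwann cells are known to carry ERBB3. Of their 4 tested markers NGFR was called lower and none higher (edgeR, unadjusted p under 0.05 in 1), and SOX10 had at most 7 counts in any sample. Epithelial cells are a known source of EREG and AREG. Of their 5 tested markers 3 were called higher, each with at most 22 counts in any sample, and 1 lower. The lower one was CDH1, the most abundant of the list, which fell from 34.8 ± 3.58 to 7.75 ± 1.10 CPM (log2 -2.17; edgeR adjusted p = 1.17e-07). CDH1 made up most of the sum of the list, which went from between 30.8 and 37.7 CPM to between 7.54 and 9.59 CPM, in the direction of EREG. The other 4 tested markers went the other way, and the median log2 fold change of the 5 was 1.88. The part of epithelial cells in the EREG values was not tested. KRT5 and KRT14 were at 0 counts in all samples, and EPCAM had at most 1. Endothelial markers (7 tested, 1 called higher and 2 lower), smooth muscle and pericyte markers (8 tested, 1 higher), adipocyte markers (6 tested, 2 higher and 1 lower) and leukocyte markers (6 tested, 1 higher and 1 lower) complete the lists. PTPRC, which marks leukocytes, had at most 2 counts in any sample.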

How the data were processed

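The gene table and the mRNA table of 6 samples, 3 GM and 3 DM, were used. The authors aligned reads with HISAT2 and deposited raw counts per gene and per mRNA, without normalization. The authors also deposited RPKM values, and those of the gene table, the only ones printed, equal the gene counts divided by the deposited Length column, another measure in bases, and by the sample's summed gene counts. The methods name a buffalo genome, the tables carry cattle Ensembl identifiers, and the submitters' processing notes name Bowtie 0.12.2, mm8 and mm9, so the build of the coordinates is not given in the sources used here. The deposited lists of differential features hold fold changes, p-values and q-values of the authors' own test and were not used, nor was the ncRNA table. No sample column was left unmapped (0).

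edgeR 4.0.16 in R 4.3.3 (quasi-likelihood test; TMM factors; at least 10 counts in total) was applied to the counts, with Benjamini-Hochberg adjustment over 15576 genes or 16352 mRNAs, on the 3 GM and 3 DM samples without covariates. Standard errors were taken from the F statistic. Single sums were compared with exact two-sided permutation tests in scipy 1.17.1. The genes, lists and tests were chosen with earlier results of these data known. Besides the 10 genes, the called list genes with the 2 largest changes in each direction were named. All 10 symbols were found in the RefSeq gene list. Alternatives were DESeq2 1.42.0, other scalings and filters, calls with no minimum fold, a test for changes beyond 2-fold, a replicate block and each sample left out. Deviations of same-numbered samples correlated between -0.0218 and -0.00756 for genes and between -0.0402 and -0.0105 for mRNAs, so no pairing was seen in the counts. With 3 samples per group such values cannot decide whether same-numbered samples shared a source, and the labels do not say. On simulated data with 200 genes changed 4-fold in 15414 genes, edgeR recovered 200 genes with 4 false calls, and on 16217 mRNAs it recovered 197 with 1 false call. The simulation used an assumed spread, equal in all samples, and far fewer changed genes than were called here. Its rates therefore do not describe the real data. RT-qPCR, blots and the knockdown were not analysed here.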

Additional observations from a re-analysis of the deposited data

How the results depend on the processing

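The count of called genes of the set was 6 with library size alone, DESeq2 size factors, no filter, filterByExpr, DESeq2 and each sample left out. It was 4 of 7 tested under the RPKM rule, which left out ERBB3, DUSP4 and AREG, 8 without a minimum fold change and 5 when tested for a change beyond 2-fold, where EREG lost its call. Over all genes, 3936 calls became 2197 under the RPKM rule, 9813 without a minimum fold change and 2293 when tested for a change beyond 2-fold, and the 4184 calls of mRNAs became 2264, 10571 and 2510. With each sample left out, calls ranged from 3647 to 3995 for genes and from 3904 to 4274 for mRNAs. A replicate block gave 3837 genes, 4094 mRNAs and 6 genes of the set, and the labels do not say whether replicate numbers pair the samples. Among 145 values of log2 fold changes of the 10 genes under alternatives, 142 kept direction and call, 1 lost its call (EREG) and 2 gained one without a minimum fold change (EGFR and SPRED1). Of 320 such values over all named genes 13 lost their call, and 0 changed direction. The log2 ratio of summed RPKM ranged from -1.43 to -1.31 for the EGFR-binding ligands and from -2.11 to -1.77 for the phosphatases with each sample left out. With library size alone 52.8% of called genes were higher in DM samples, against 59.2% with TMM. BTC, EPGN, NRG2 and ERBB4 had too few counts to set a direction. AREG, also near the detection limit, was not called under any alternative in which it was tested. With 3 samples per group an exact test cannot go below p = 0.1.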
